A study of Mus musculus with 6 samples.

Results

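The genes described here are 6 enzymes of heme synthesis (Alas2, Alad, Uros, Urod, Cpox and Fech) and 3 regulators of red cell development (Gata1, Klf1 and Epor). They were taken by symbol from a list of names, and all 9 were found among the 21761 genes of the expression table. RNA-seq had been run on bone marrow cells of male C57BL/6J mice at 3 stages of a culture that leads to dendritic cells. Fresh marrow formed day 0 (libraries II and III), and the other groups were cells cultured for 4 days (libraries I and II, titled CMP, with common myeloid progenitors given as the source) and for 7 days (libraries III and IV, titled BMDC). Cultured cells received RPMI with serum and the supernatant of a transfected SP2/0 line that secretes Flt3L, the ligand of the receptor Flt3. The sources used here do not give the mice's age, their genotype beyond the strain, or any removal of red cells before RNA was taken. The labels name no separate animals or cultures behind the libraries of a day, and p-values therefore reflect nothing but the spread of these libraries, which may be technical.

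Heme is built from glycine and succinyl-CoA in a chain of enzymes that starts and ends in the mitochondrion. ALA synthase makes the first intermediate. Alas2 is its red cell form and Alas1 its form in other cells. In developing red cells GATA1, the lead transcription factor of the lineage, and KLF1, which binds CACCC elements, drive the genes of heme and globin, and EPOR, the receptor of erythropoietin, keeps the precursors alive.

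Depth rose with the day of culture. Reads in genes numbered 322837 and 157797 in the libraries of day 0, 1365635 and 3852628 in those of day 4, and 16149088 and 10951745 in those of day 7. Values were in RPKM, which scales reads by the exon length of the gene and the total of the library, and 3 reads of a gene 1 kb long came to 9.29 and 19.01 RPKM at day 0, 2.20 and 0.779 at day 4, then 0.186 and 0.274 at day 7. As a measure of background, 1116 olfactory receptor genes, which marrow cells are not known to use, were counted in each library. A read fell in 57.5% and 49.4% of them at day 0, in 93.1% and 73.6% at day 4, and in 2.87% and 2.06% at day 7. Whether a gene holds a read also depends on depth. These genes took 1.13% and 1.09% of the reads at day 0, 0.499% and 0.102% at day 4, then 0.00289% and 0.00363% at day 7. Their 95th percentile was 9.77 and 13.7 RPKM at day 0, 8.45 and 2.48 at day 4 and 0 in both day 7 libraries. Depth and background thus moved with the day, and their part in the differences between days cannot be told apart from that of the culture. All reads came from mixed cells, so that fewer red cell precursors and less RNA per precursor cannot be told apart either.

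Promoters of members are shown because most of the 9 genes were lower together after day 0 and GATA1 and KLF1 are among them. RefSeq windows (GRCm38.p6) that run from 250 bases before to 50 bases after the start were found for 8 of the 9 members, 10 windows in all. The 5 printed were picked from the 10 because they hold a match in a gene called lower at day 4, and of the other windows, of Alad, Urod and Uros, only 1 of Uros holds a GATA motif and none CCACNCCCT. Each line gives the 130 bases before the start, 5′ to 3′ on the gene's strand, and capitals mark a GATA motif (AGATAA, or the same letters with T first, G last or both, on either strand) or the CACCC motif CCACNCCCT (either strand).
Alas2: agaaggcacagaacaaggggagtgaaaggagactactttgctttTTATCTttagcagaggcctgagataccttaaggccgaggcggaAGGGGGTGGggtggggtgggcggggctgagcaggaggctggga
Cpox: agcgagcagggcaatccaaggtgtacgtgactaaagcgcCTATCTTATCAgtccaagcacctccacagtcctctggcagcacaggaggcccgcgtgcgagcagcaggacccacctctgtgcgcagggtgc
Klf1: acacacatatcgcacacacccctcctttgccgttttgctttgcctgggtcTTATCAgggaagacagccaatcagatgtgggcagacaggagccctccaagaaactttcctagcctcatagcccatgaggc
Epor: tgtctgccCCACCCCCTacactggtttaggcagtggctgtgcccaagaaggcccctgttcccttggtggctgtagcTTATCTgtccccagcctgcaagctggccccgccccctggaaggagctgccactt
Gata1: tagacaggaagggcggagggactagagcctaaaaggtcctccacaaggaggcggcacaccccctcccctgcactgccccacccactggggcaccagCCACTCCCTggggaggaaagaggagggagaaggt
The Alas2 stretch lies at chrX:150547287-150547416 (plus strand), that of Cpox at chr16:58670078-58670207 (plus), that of Klf1 at chr8:84901852-84901981 (plus), that of Epor at chr9:21963577-21963706 (minus) and that of Gata1 at chrX:7967911-7968040 (minus). The GATA motif lay 86 to 81 bases before the start of Alas2, 80 to 75 before that of Klf1 and 54 to 49 before that of Epor. In Cpox a pair of GATA motifs that share 1 base ran from 91 to 81 bases before the start. A GATA motif stood in 5 of the 10 windows, against 29.8% of 32851 windows of all genes, and CCACNCCCT in 3 of the 10 (Alas2, Epor and Gata1), against 4.42% of all windows. The looser CACCC motif CCNCNCCCN, which contains every CCACNCCCT, stood in 8 of the 10 and in 49.4% of all windows. A match is a description of these letters and shows no binding.

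At day 4, 7 of the 9 genes were lower than in fresh marrow and none was higher (limma, Benjamini-Hochberg adjusted p under 0.05 over 19279 genes). They were Alas2, Alad, Cpox, Fech, Gata1, Klf1 and Epor. In the same comparison 1.92% of all genes tested were called lower and 3.66% higher. Both day 4 libraries lay below both day 0 libraries for 8 of the 9 genes, all but Urod, as they did for 33.3% of all genes. The median log2 fold change of the 9 was -2.76, on the log2(RPKM + 1) scale used throughout, against -0.40 over all genes. That scale understates the change of genes with low values. Leaving out 1 library altered the count of 7: it was 0 without either day 4 library, 4 without day 0 III and 5 without day 0 II, day 7 III or day 7 IV. Without a day 4 library limma called no gene at all, although 6499 genes (without I) and 3437 genes (without II) had an unadjusted p under 0.05, among them 6 and 9 of the 9 members in the direction of a decrease.

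From day 4 to day 7, Alas2 was the 1 member called lower and none was called higher, where 6.75% of all genes were called lower and 5.85% higher. Both day 7 libraries lay below both day 4 libraries for 5 members (Alas2, Fech, Gata1, Klf1 and Epor), as for 57.6% of all genes, and the median log2 fold change of the 9 was -0.49 against -0.81 over all genes. Against fresh marrow, 7 of the 9 were lower at day 7 and none higher, where 29.3% of all genes were called lower and 11.3% higher. The exceptions were Alad and Urod. All 9 members had both day 7 libraries below both day 0 libraries, as had 50.8% of all genes. The median log2 fold change was -3.88 for the 9 and -1.14 for all genes, and leaving out any 1 library left 6 or 7 members called. The 3 comparisons share libraries in pairs and are not independent of each other.

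**Figure D1:**
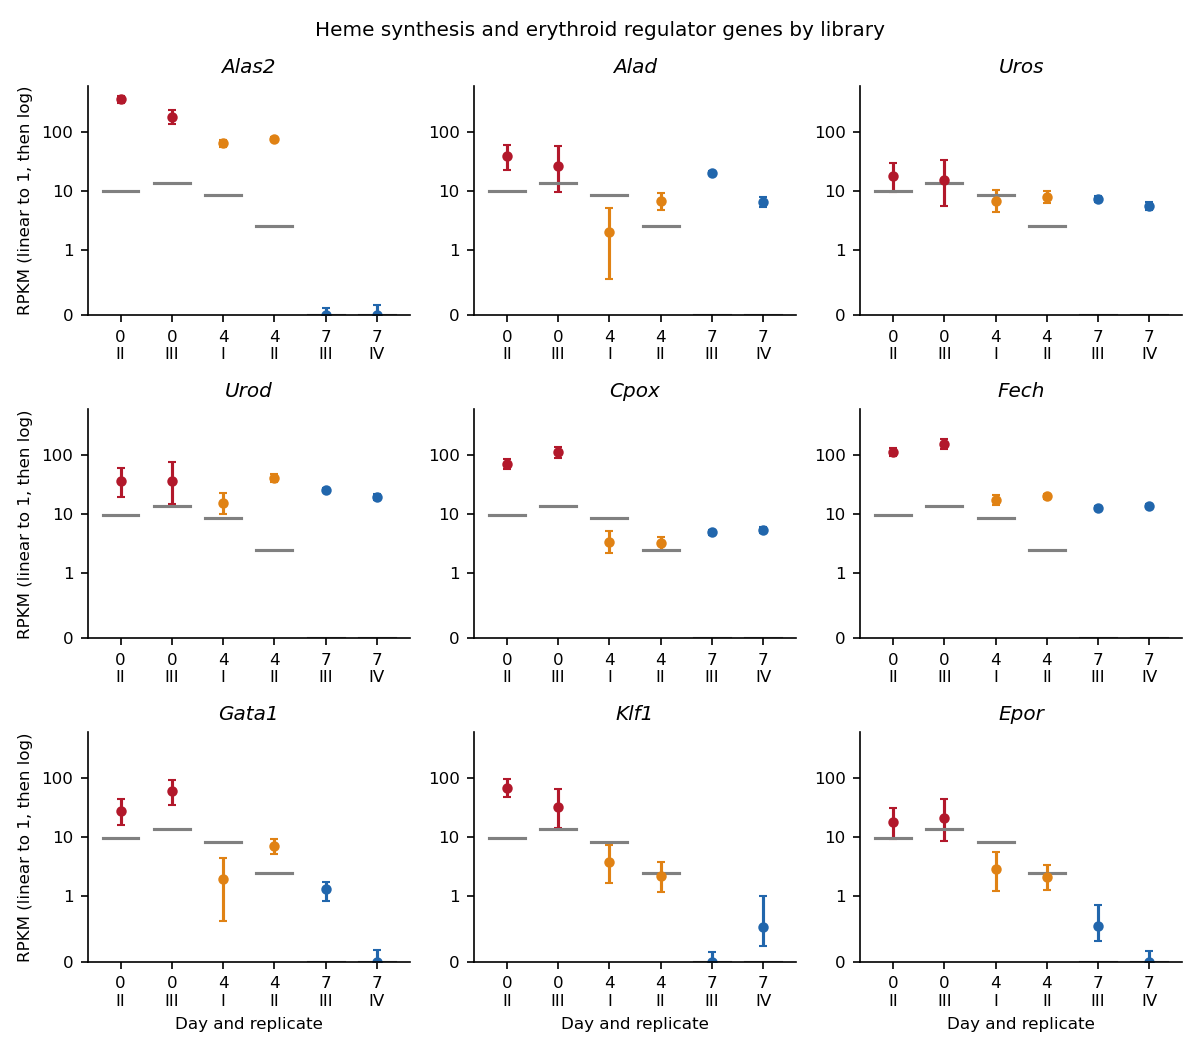
RPKM of the 9 genes in each library (axis linear from 0 to 1 and logarithmic above), with bars for the exact 95% Poisson interval of the reads and grey lines for the 95th percentile of the olfactory receptor genes in that library. Alas2 stood at 0 in both day 7 libraries. In day 4 library I the values of Alad, Uros, Cpox, Gata1, Klf1 and Epor lay below the grey line, and in day 4 library II those of Klf1 and Epor.

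Against day 0, the genes of ALA synthase moved in opposite directions. Alas2 was read at 358 and 179 RPKM at day 0 and at 64.1 and 76.3 RPKM at day 4, and no read was found at day 7. The days did not overlap. Its log2 fold change from day 0 to day 4 was -1.84 ± 0.43 (SE; 2 libraries a day; limma, Benjamini-Hochberg adjusted p = 0.0468), and from day 4 to day 7 it was -6.15 ± 0.43 (adjusted p = 0.000257). The day 4 call stood close to the threshold and was lost in 12 of 17 alternative settings, among them leaving out any library other than day 0 III (adjusted p above 0.05), while the log2 fold change stayed between -2.65 and -1.34. The call from day 4 to day 7 was lost only without either day 4 library. With 3 reads over the pooled day 7 libraries as a floor, the pooled ratio was 5563 for day 0 over day 7 and 1359 for day 4 over day 7. With the counting error of both days included, the exact 95% lower bounds of the pooled ratios were 4496 for day 0 and 1103 for day 4. These bounds cover counting error only and leave out the spread between the libraries of a day.

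Alas1, the ALA synthase of other cells, was read at 35.7 and 19.9 RPKM at day 0, at 112 and 197 at day 4 and at 94.0 and 78.0 at day 7. Both later days lay above day 0. Day 7 lay below day 4 without overlap, a change that was not called (log2 fold change -0.79 ± 0.45, limma, Benjamini-Hochberg adjusted p = 0.269). Alas1 rose by 2.43 ± 0.45 on the log2 scale from day 0 to day 4 (limma, Benjamini-Hochberg adjusted p = 0.0260) and was 1.65 ± 0.45 above day 0 at day 7 (adjusted p = 0.0256). The day 4 call was lost in 7 of 17 alternative settings, those without either day 4 library among them. The day 7 call against day 0 was lost in 8 of 17, those without any day 4 or day 7 library among them.

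Together these values moved the share of Alas2 in the RPKM of both ALA synthases. In day 0 libraries II and III it was 90.9% (exact Clopper-Pearson 95% interval of the reads, 87.4 to 93.7%) and 90.0% (81.5 to 95.4%). In day 4 libraries I and II it was 36.3% (32.3 to 40.5%) and 27.9% (26.1 to 29.8%). At day 7 it was 0 of 4349 and 0 of 2448 reads of both genes, where the exact 95% upper bounds on the RPKM scale were 0.118% and 0.210%, and a floor of 3 Alas2 reads would make 0.0960% and 0.171%. Intervals and limits here cover counting error only. In the GENCODE annotation of mm10, 12.9% of the exon bases of Alas2 are shared with Apex2 on the opposite strand and 7.53% of those of Alas1 with an antisense transcript, and the sources used here do not say whether strand was used in counting.

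**Figure D2:**
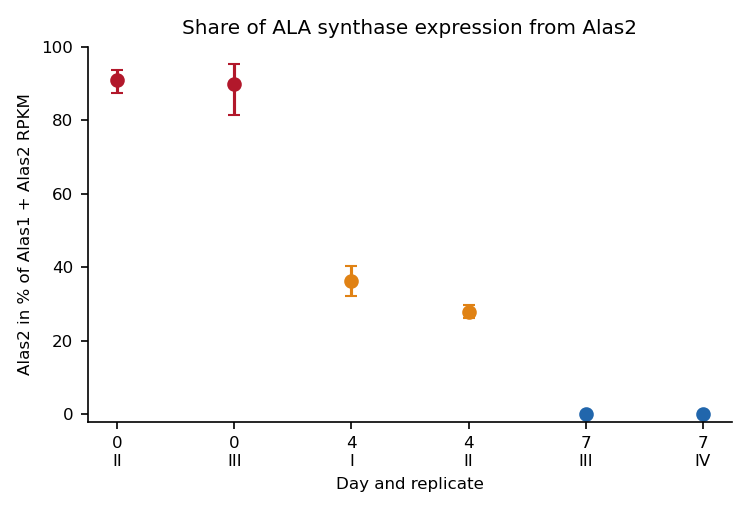
Alas2 as a percentage of the summed RPKM of Alas1 and Alas2 in each library, with exact 95% intervals of the read counts. The share was 90.9% and 90.0% at day 0, 36.3% and 27.9% at day 4 and 0 at day 7.

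The next steps join ALA into porphyrin rings. Alad, which condenses ALA molecules into porphobilinogen, was read at 38.5 and 26.2 RPKM at day 0, at 2.02 and 6.80 at day 4, and at 20.2 and 6.42 at day 7. Day 4 lay below day 0, but day 7 overlapped day 4, and the day 7 libraries stood far apart. Its log2 fold change to day 4 was -2.76 ± 0.64 (limma, Benjamini-Hochberg adjusted p = 0.0472), a call lost in 12 of 17 alternative settings, among them leaving out any of the day 0 or day 4 libraries. The value of 2.02 RPKM in day 4 library I rested on 4 reads, and 54.6% of the olfactory receptor genes were higher in that library. Day 7 against day 0 gave -1.39 ± 0.64 (adjusted p = 0.112).

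Uros, which closes the ring, was read at 17.5 and 15.3 RPKM at day 0, 6.79 and 7.96 at day 4, then 7.32 and 5.60 at day 7. Day 0 stood above the later days, which overlapped. The change was called only for day 7 against day 0 (-1.23 ± 0.40, limma, Benjamini-Hochberg adjusted p = 0.0406), and this call was lost in 10 of 17 alternative settings, among them leaving out any of the day 0 or day 7 libraries. Urod, which trims the ring's side chains, was read at 36.2 and 37.0 RPKM at day 0, 15.3 and 40.9 at day 4, then 25.5 and 19.6 at day 7. It was called in none of the comparisons, although both day 7 libraries lay below both day 0 libraries. At day 7 its mean was 61.6% of that of day 0, the largest share kept among the 9 genes.

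Cpox and Fech, of the last and mitochondrial steps, were among the members with the strongest calls. Cpox oxidizes coproporphyrinogen and was read at 70.9 and 112 RPKM at day 0, 3.41 and 3.17 at day 4, then 4.87 and 5.35 at day 7. The level dropped once: day 4 held 3.60% of the day 0 mean, and day 7 stood slightly above day 4 without overlap. The log2 fold change from day 0 to day 4 was -4.39 ± 0.40 (limma, Benjamini-Hochberg adjusted p = 0.00711), the largest decrease among the 9 in this step, and it was lost in 3 of 17 settings, those without a day 4 library and that with library weights. Pooled by day and set against the library totals, its reads were 26.1-fold higher at day 0 than at day 4 (exact 95% interval 20.2 to 33.9). That interval covers counting error only. In day 4 library I, 26.5% of the olfactory receptor genes stood above Cpox, in library II 3.05%.

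Fech inserts iron into the ring. It was read at 113 and 154 RPKM at day 0, 17.5 and 19.9 at day 4, then 12.6 and 13.5 at day 7, with no overlap between days. It fell by 2.76 on the log2 scale to day 4 (SE 0.36, limma, Benjamini-Hochberg adjusted p = 0.0117), lost in the same 3 settings as Cpox, and stood 3.25 below day 0 at day 7 (log2 fold change -3.25 ± 0.36, adjusted p = 0.00113). Ppox, which acts between Cpox and Fech and is no member, went another way: 42.5 and 41.8 RPKM at day 0, 98.9 and 78.5 at day 4, then 14.5 and 11.8 at day 7. Its rise to day 4 missed the threshold (1.05 ± 0.36, adjusted p = 0.121) and its fall from day 4 to day 7 did not (-2.67 ± 0.36, adjusted p = 0.00285), a call lost without either day 4 library. In the annotation of mm10, 17.5% of the exon bases of Ppox are shared with B4galt3 on the opposite strand.

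Summed over the 8 enzymes described here, the level was 713 and 585 RPKM at day 0, 320.2 and 430.5 at day 4, then 179 and 140.3 at day 7. Alas2 was the highest of the 8 enzymes in both day 0 libraries and Alas1 in the 4 later ones, where it made up 35.1% to 55.6% of the sum. Uros was the lowest enzyme at day 0, Alad (library I) and Cpox (library II) at day 4 and Alas2 at day 7.

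**Figure D3:**
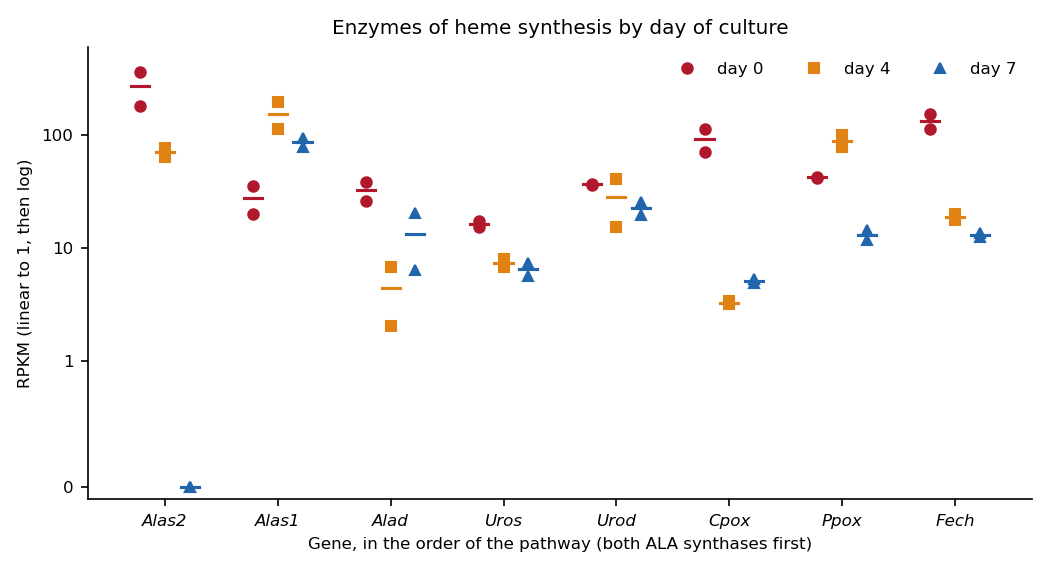
RPKM of 8 enzymes of heme synthesis in each library, in the order of the pathway with both ALA synthases first (axis linear from 0 to 1 and logarithmic above, bars at the mean of 2 libraries). Cpox and Fech dropped to day 4, Alas1 rose, and Alas2 stood at 0 at day 7.

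The 3 regulators were also lower at day 4, with few reads behind the later values. Gata1 was read at 27.7 and 59.97 RPKM at day 0, 1.92 and 7.10 at day 4, then 1.30 and 0 at day 7. The day 7 libraries disagreed: 40 reads of library III fell in Gata1 and none of library IV, where the exact 95% upper bound was 0.177 RPKM. The log2 fold change to day 4 was -3.10 ± 0.69 (limma, Benjamini-Hochberg adjusted p = 0.0422), lost in 9 of 17 settings, those without day 0 III or either day 4 library among them. Day 7 against day 0 gave -4.78 ± 0.69 (adjusted p = 0.00311) and was called in all 17.

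Klf1 was read at 68.7 and 33.0 RPKM at day 0, 3.82 and 2.20 at day 4, then 0 and 0.536 at day 7. The days did not overlap, and at day 7 all 9 reads came from library IV. Its log2 fold change was -3.63 ± 0.55 to day 4 (limma, Benjamini-Hochberg adjusted p = 0.0151), lost in 6 of 17 settings, those without either day 4 library among them. It was -5.30 ± 0.55 to day 7 (adjusted p = 0.000832), called in all 17.

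Epor was read at 18.1 and 21.6 RPKM at day 0, 2.86 and 2.15 at day 4, then 0.543 and 0 at day 7. The days did not overlap, and all 18 reads of day 7 came from library III. The log2 fold change was -2.58 ± 0.52 to day 4 (limma, Benjamini-Hochberg adjusted p = 0.0316), lost in 10 of 17 settings, those without day 0 III or any day 4 or day 7 library among them. It was -4.07 ± 0.52 to day 7 (adjusted p = 0.00196), lost when all libraries were thinned to the smallest.

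Background reads lay at the level of the regulators at day 4. In library I, 55.8% of the olfactory receptor genes stood above Gata1, 36.7% above Epor and 24.4% above Klf1. In library II the same shares were 0.538%, 6.09% and 5.91%. The part of such reads in the day 4 levels was not tested. From day 4 to day 7 none of the 3 regulators was called (adjusted p = 0.151 for Gata1, 0.0882 for Klf1 and 0.102 for Epor, limma with Benjamini-Hochberg adjustment). In the voom fit to the reads all 3 were called lower, and Klf1 also with a pseudocount of 0.1.

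**Figure D4:**
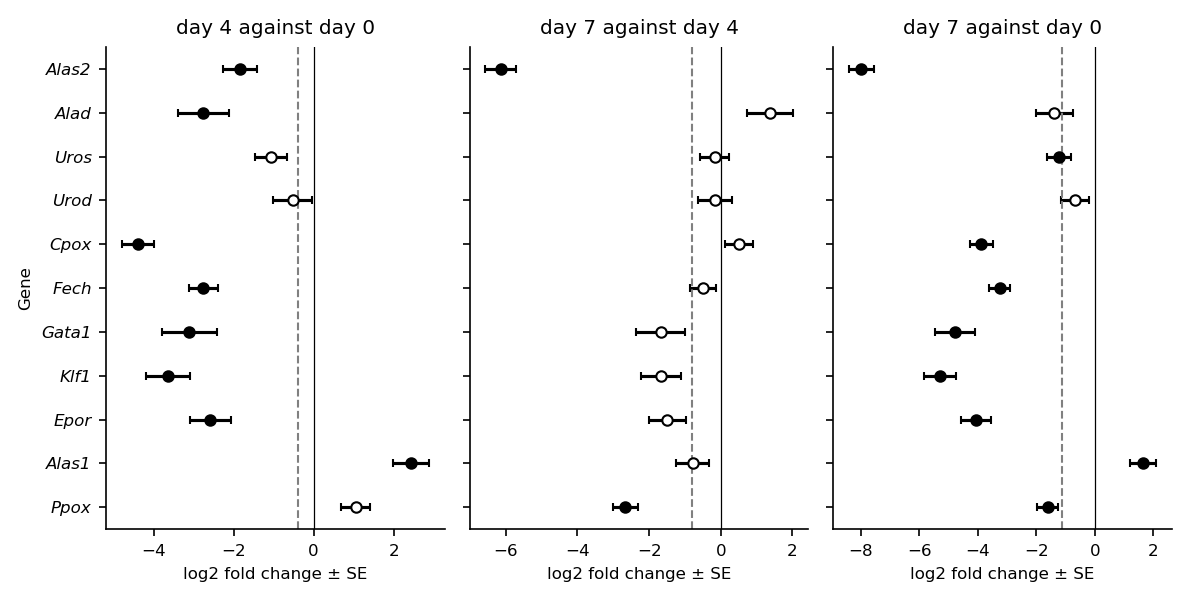
Log2 fold changes with their standard errors for the 9 genes, Alas1 and Ppox in the 3 comparisons; filled points passed adjusted p under 0.05 and the dashed line marks the median of all genes. Alas2 is the 1 member with a filled point in all 3 panels.

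The 2 steps of the culture were set against each other by testing the change from day 4 to day 7 less the change from day 0 to day 4. Both steps share the day 4 libraries, so an error there enters with opposite signs. Among the 9, Alas2 was called lower in this difference, its decrease being larger in the second step (-4.31 ± 0.74, limma, Benjamini-Hochberg adjusted p = 0.0149), and Cpox was called higher, its decrease standing in the first (4.90 ± 0.70, adjusted p = 0.00819). Of all genes 4.24% were called lower and 2.37% higher. For Fech (2.27 ± 0.62, adjusted p = 0.0738) and Alad (4.12 ± 1.11, adjusted p = 0.0683) the difference missed the threshold. The Alas2 call was lost without day 4 I, day 4 II or day 7 IV and the Cpox call without day 4 I or day 4 II.

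Among 21 genes that carry heme or supply the mitochondrion with iron and iron-sulfur clusters, 3 fell and 1 rose at day 4, and 5 fell and 6 rose at day 7 against day 0. Their median log2 fold changes were -0.61 at day 4 and -0.11 at day 7, against -0.40 and -1.14 over all genes. Over all genes 1.92% were called lower and 3.66% higher at day 4, and 29.3% lower and 11.3% higher at day 7 against day 0, and the counts of this list and of those that follow are read beside these shares. Slc25a37 (mitoferrin 1), the iron carrier of red cell mitochondria, was read at 177 and 302 RPKM at day 0, 56.2 and 90.0 at day 4, then 8.98 and 5.96 at day 7. Its log2 fold change at day 7 against day 0 was -4.80 ± 0.44 (limma, Benjamini-Hochberg adjusted p = 0.000571). Its partner Abcb10 fell to day 4 (-2.56 ± 0.46, adjusted p = 0.0225) and was lower again at day 7 than at day 4 (-1.99 ± 0.46, adjusted p = 0.0264), the latter call being lost without any of the day 4 or day 7 libraries. Among the 6 that were higher at day 7 than at day 0, Pgrmc1, a heme-binding membrane protein, went from 6.74 and 6.90 RPKM to 95.8 and 115 at day 7 (3.76 ± 0.35, adjusted p = 0.000606), and Snx3, a sorting nexin, from 60.7 and 50.6 to 353 and 332 (2.61 ± 0.39, adjusted p = 0.00355). Slc48a1, a heme transporter of macrophages, went from 34.7 and 43.1 RPKM to 276 and 279 (2.81 ± 0.47, adjusted p = 0.00556). Tmem14c, which carries porphyrin into the mitochondrial matrix in red cell precursors, went from 163 and 73.2 RPKM to 300.6 and 289.9 (1.43 ± 0.47, adjusted p = 0.0433), a call lost without day 0 III or any day 4 or day 7 library. Leaving out 1 library kept the day 7 calls of Slc25a37, Abcb10, Pgrmc1, Snx3 and Slc48a1 against day 0, and without either day 4 library every day 4 call of this list and of those that follow was lost. Without day 7 III or day 7 IV, 2 members of the list were lower and 4 higher at day 7 than at day 0, and without day 0 III, 2 and 5.

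Of 10 genes of iron uptake and sensing, 2 fell and none rose at day 4. They were Tfrc, the transferrin receptor, and Steap3, the reductase that acts with it in endosomes. Tfrc was read at 69.4 and 140 RPKM at day 0, 19.4 and 28.4 at day 4, then 22.5 and 19.1 at day 7. Its log2 fold change to day 4 was -2.02 ± 0.44 (limma, Benjamini-Hochberg adjusted p = 0.0397), and that of Steap3 was -3.36 ± 0.46 (adjusted p = 0.0120). The Tfrc call was also lost without either day 7 library. At day 7 against day 0, 4 of the 10 were lower and 3 higher, beside 29.3% and 11.3% of all genes. The higher ones were Hfe, which binds the transferrin receptor (5.40 and 7.36 RPKM at day 0, 38.9 and 53.8 at day 7, 2.68 ± 0.46, adjusted p = 0.00616), Pcbp2, an iron chaperone (1.57 ± 0.43, adjusted p = 0.0247), and Aco1, the iron-sensing aconitase. Without 1 library the counts moved: none was lower and 1 higher without day 7 III and none was called without day 7 IV. The counts were 1 lower and 4 higher without day 0 III, and 2 and 3 without either day 4 library.

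Of 21 partners of GATA1 and other erythroid factors, 5 fell and 1 rose at day 4, and 12 fell and 2 rose at day 7 against day 0, with medians of -1.05 and -2.45. Tal1, a partner of GATA1 in DNA-bound complexes, was read at 16.2 and 21.7 RPKM at day 0, 3.67 and 2.42 at day 4, then 2.57 and 2.66 at day 7. It fell to day 4 (-2.30 ± 0.46, limma, Benjamini-Hochberg adjusted p = 0.0300), as did Zfpm1 (FOG-1), the GATA1 cofactor (-3.33 ± 0.69, adjusted p = 0.0345), and Hemgn (-3.91 ± 0.44, adjusted p = 0.00721). Nfe2, a factor of red cells and megakaryocytes, was the 1 that rose: 63.1 and 41.8 RPKM at day 0, 196 and 145 at day 4, then 1.41 and 1.53 at day 7 (1.69 ± 0.39, adjusted p = 0.0455, then -6.10 ± 0.39, adjusted p = 0.00018). Lmo2, which bridges TAL1 and GATA1, and Klf13 were higher at day 7 than at day 0. The day 4 calls of Tal1, Zfpm1 and Nfe2 were also lost without day 0 III or either day 7 library. In the list, 3 members were lower at day 4 without day 0 III and 1 without either day 7 library, where Nfe2 was lost. At day 7 against day 0, 8 were lower and 1 higher without day 7 III, and 5 and 1 without day 7 IV.

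Gata2, the GATA factor of early progenitors, mast cells and basophils, was read at 2.77 and 3.78 RPKM at day 0, 1.09 and 7.28 at day 4, then 0 and 0.300 at day 7, and no change was called. Gata1 made up 90.9% and 94.1% of the RPKM of both GATA genes at day 0 (exact 95% intervals of the reads 74.3 to 98.2% and 79.2 to 99.3%) and 63.8% and 49.4% at day 4 (28.9 to 88.5% and 40.5 to 58.0%). At day 7 the share had no common value: 40 reads of library III fell in Gata1 and none in Gata2, and of library IV none in Gata1 and 11 in Gata2.

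Among 6 myeloid factors known to act against GATA1 or in other lineages, 1 fell at day 4 (Cebpb) and none rose, and at day 7 against day 0, 3 were higher and 1 lower. Spi1 (PU.1), which binds GATA1 and blocks it, was read at 92.9 and 47.5 RPKM at day 0, 218 and 285 at day 4, then 245 and 262 at day 7. Its log2 fold change was 1.89 ± 0.47 to day 4 (limma, Benjamini-Hochberg adjusted p = 0.0562), which missed the threshold, and 1.91 ± 0.47 to day 7 (adjusted p = 0.0189). Irf8 and Cebpa were also higher at day 7. Against day 0, 1 of the 6 was higher without day 7 III and none without day 7 IV, where Spi1 and Irf8 were lost in both cases and Cebpa in the second. Of 15 genes of signalling from the erythropoietin receptor, 1 fell (Pim1, a survival kinase) and 1 rose (Ptpn6, the phosphatase that shuts the receptor off) at day 4, with a median of -0.35. Ptpn6 was read at 51.3 and 29.4 RPKM at day 0, 183 and 261 at day 4, then 104 and 115 at day 7 (2.46 ± 0.43 to day 4, adjusted p = 0.0215). Pim1 was read at 20.9 and 23.0 RPKM at day 0, 2.66 and 4.85 at day 4, then 104 and 128 at day 7. It was lower at day 4 (-2.31 ± 0.39, adjusted p = 0.0203) and higher at day 7 than at day 0 (2.35 ± 0.39, adjusted p = 0.00551), the latter call being lost without day 7 IV. At day 7 against day 0, 3 of the 15 were lower, Kit among them, and 2 were higher, Pim1 and Ptpn6. These counts were 5 and 2 without day 0 II, 2 and 2 without day 0 III, 3 and 1 without either day 4 library, 1 and 1 without day 7 III, and 1 and 0 without day 7 IV.

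Markers of other cell types moved with the same days. Of 18 red cell genes, 14 fell and none rose at day 4, and all 18 were lower at day 7 than at day 0. The 14 became 0 without either day 4 library, 10 without day 0 III and 11 without either day 7 library, and the 18 became 17 without either day 7 library. Their summed RPKM was 80796 and 40355 at day 0, 3925 and 4190.2 at day 4, then 26.7 and 46.8 at day 7, where Slc4a1, Epb42, Rhag and Rhd stood at 0 in both libraries. The day 4 level of Hbb-b1 was 6.53% of its day 0 mean, that of Slc4a1 4.91% and that of Car2 15.4%. It was 26.1% for Alas2, 14.0% for Fech and 3.60% for Cpox. Red cell genes differed widely in this share. From day 0 to day 4 the mean of Trim10 went from 62.9 to 23.7 RPKM and that of Car1 from 216 to 1.33. The share of Alas2 lay between those of these genes.

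Genes of basophils and mast cells, which also use Gata1, summed to 168 and 88.5 RPKM over 9 genes at day 0, 552 and 916 at day 4, then 1.41 and 0.300 at day 7, where 6 and 8 of the 9 stood at 0. Most of the day 4 sum came from Hdc, at 252 and 410 RPKM, and Prss34, at 232 and 439. Eosinophil genes summed to 657 and 65.3 RPKM over 6 genes at day 0, 145 and 246 at day 4, then 9.42 and 2.03 at day 7, with Epx, Prg3 and Il5ra at 0 in both day 7 libraries. Most of the earlier sums came from Prg2, at 625 and 45.4 RPKM at day 0 and 128 and 225 at day 4. Megakaryocyte genes, another lineage with Gata1, summed to 38.0 and 74.2 RPKM over 10 genes at day 0, 40.6 and 449 at day 4, then 258 and 213 at day 7. Genes of these lineages were read at day 4, and their part in the day 4 levels of Gata1, Nfe2 and Gata2 was not tested.

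Neutrophil genes summed to 65452 and 8251 RPKM over 8 genes at day 0, 45520 and 34745 at day 4, then 68.1 and 55.9 at day 7, where Mpo stood at 0 in both libraries. Macrophage genes summed to 48.8 and 53.1 RPKM over 7 genes at day 0, 39.2 and 30.5 at day 4, then 4307 and 4670 at day 7. Dendritic cell genes summed to 505 and 352 RPKM over 10 genes at day 0, 270 and 52.4 at day 4, then 2130 and 2253 at day 7. Most of the day 7 sum came from Cd74, of MHC class II loading, at 1814 and 1932 RPKM. At day 7 against day 0, 3 of the 10 were higher (Cd74, H2-Aa and Itgax) and 3 lower (Flt3, Zbtb46 and Xcr1). Over all genes 11.3% were called higher and 29.3% lower. Itgax changed by 3.53 ± 0.79 on the log2 scale (limma, Benjamini-Hochberg adjusted p = 0.0148). The changes of the lower ones were -2.22 ± 0.65 for Flt3 (adjusted p = 0.0303), -2.12 ± 0.72 for Zbtb46 (adjusted p = 0.0462) and -2.29 ± 0.63 for Xcr1 (adjusted p = 0.0259). The calls of Itgax, Cd74, Flt3, Zbtb46 and Xcr1 were each lost without day 7 III or day 7 IV. Those of Itgax and Flt3 were also lost without either day 4 library, and those of Cd74, Flt3, Zbtb46 and Xcr1 without day 0 III. The cells titled BMDC thus carried macrophage genes beside a part of the dendritic cell list. Cells titled CMP carried neutrophil granule genes.

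**Figure D5:**
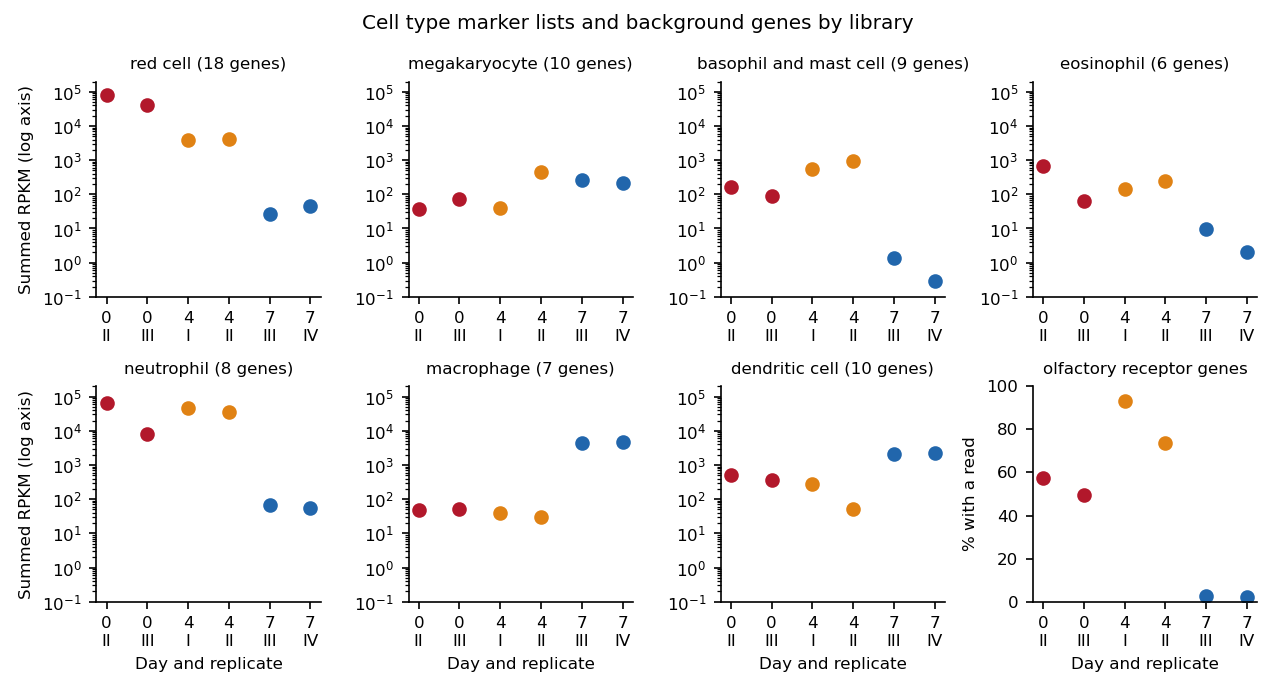
Summed RPKM of 7 lists of cell type markers in each library (log axis) and the percentage of olfactory receptor genes with a read (linear axis from 0 to 100). That percentage depends on the depth of the library as well as on background. The sum of red cell genes dropped at each step, and the sums of macrophage and dendritic cell genes were highest at day 7.

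The genes whose pattern over the 6 libraries was nearest to that of Alas2, Gata1, Klf1 and Epor are given as a description with no test, since 3 days set most of the pattern and the libraries differ in depth. Pearson's r reads the shape of a pattern and not its size. Among the 7703 genes whose mean reached 5 RPKM, the 3 with the highest Pearson r to Alas2 on the log2(RPKM + 1) scale were Car2 (0.998), the red cell carbonic anhydrase, Ska3 (0.997) and Hmmr (0.996), both of the mitotic spindle. For Gata1 they were Prrc2c (0.993), Hcfc1 (0.993) and Casc5 (0.990). For Klf1 they were Tcf3 (0.998), which pairs with TAL1, Rbm11 (0.995) and Hist1h1e (0.992), and for Epor Aldh1a1 (0.997), Spink1 (0.993) and Nup155 (0.993). Prrc2c went from 13.3 and 17.9 RPKM at day 0 to 6.82 and 4.43 at day 7, a far smaller range than that of Gata1. By the distance between centred log2 values, which reads size too, the nearest to Alas2 were Cd24a (1.39), Car2 (1.42) and Prtn3 (1.45). Those nearest to Epor were Aldh1a1, Add2 and Gypc. Those nearest to Gata1 were Mcm2, Tfdp2 and Hmgb3, and those to Klf1 Zfp459, Smco1 and Vmn1r65. Of these genes, Car2 and Aldh1a1 had also been named by r. Prtn3 was read at 504 and 103 RPKM at day 0, 108 and 155 at day 4, then 0 in both day 7 libraries. Car2 was read at 1820 and 605 RPKM at day 0, 176 and 196 at day 4, then 0.415 and 0.969 at day 7.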

How the data were processed

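RNA was sequenced from 6 libraries, 2 at each of 3 days, after SMARTer Ultra Low Input and NexteraXT preparation, per the labels' protocols. The authors deposited RPKM per gene over exon length, with Entrez ID, symbol and length, per the file headers. The mm9 build, TopHat2 2.0.13 and SAMtools 1.1 are named in the submitters' processing notes. The sources used here do not give the read counter, the annotation or the handling of strand. RPKM times length gave whole reads (largest distance 6.88e-05 reads), so reads and library totals (157797 to 16149088) were read back. Floors are 3 reads, and intervals are exact at 95%.

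Genes that reached RPKM 1 in 2 or more libraries (19279 of 21761, all 9 members among them) were tested on log2(RPKM + 1). limma 3.58.1 (R 4.3.3) fitted a model of 3 day means to all 6 libraries (eBayes with a mean-variance trend, 3 residual degrees of freedom, median prior 5.22), two-sided, with Benjamini-Hochberg adjustment, and the call threshold was an adjusted p of 0.05. An exact permutation of 2 against 2 libraries cannot give p below 0.333.

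The members and gene lists were chosen with earlier results of these data known. Of 148 list entries, 143 were found in the table. The text names the 9 members, Alas1 and Ppox, per list at most 4 genes of highest mean RPKM and 2 more of smallest adjusted p at day 4 or day 7 against day 0, some factors by name, and the 3 genes nearest to Alas2, Gata1, Klf1 and Epor by r. The 3 nearest by centred distance were added to these. Zbtb46, Aco1, Hbb-b1, Slc4a1, Epb42, Rhag and Rhd were also named, some after their values were seen. Some genes of these lists are not reported here. Alternatives were a pseudocount of 0.1 or 5, no filter or 5 RPKM, median ratio or quantile scaling, voom on the reads, thinning to 157797 reads, library weights, no trend, a fit on the compared libraries alone, and leaving out each library. Sequences are from RefSeq, GRCm38.p6. Coordinates are not those of mm9. Plots used matplotlib 3.10.9 in Python 3.11.15.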

Additional observations from a re-analysis of the deposited data

Results flagged for a closer look

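The change from day 4 to day 7 differed from the change from day 0 to day 4, by a test of that difference (limma, Benjamini-Hochberg adjusted over 19279 genes), for Alas2 (-4.31 on the log2 scale), Cpox (4.90), Alas1 (-3.22) and Ppox (-3.71). The adjusted p was 0.0149 for Alas2, 0.00819 for Cpox, 0.0497 for Alas1 and 0.0134 for Ppox. Each of the 4 calls was lost without either day 4 library and, for Alas2, Alas1 and Ppox, without day 7 IV, that of Alas1 also without day 7 III.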

How the results depend on the processing

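The 7 members called lower at day 4 became 2 with a pseudocount of 0.1, 4 without the filter, 3 with voom, 2 with thinning, 0 with library weights and 3 without the trend, and 0 to 5 when 1 library was left out. The cause was not tested. With library weights limma called 0 genes of all (2757 at unadjusted p under 0.05). From day 4 to day 7 the 1 call became 2 with a pseudocount of 0.1, 4 with voom, and 0 to 1 with 1 library left out. The 7 calls of day 7 against day 0 stayed at 5 to 7. In the difference between steps, the 1 lower call became 0 with a pseudocount of 5, quantile scaling, library weights or no trend (0 to 1 with a library left out), and the 1 higher call became 2 with the filter of 5 RPKM and 0 with library weights (0 to 2 with a library left out).

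In the settings tried, directions turned only for changes that were not called. The difference between steps could not be fitted on the compared libraries alone, since it needs all 3 days. With median ratio scaling the change from day 4 to day 7 was 0.0539 for Uros and 0.0881 for Urod, and with quantile scaling 0.0462 for Uros. With 1 library left out it ran from -0.84 to 0.52 for Urod, and the day 4 change of Urod from -1.21 to 0.16. The difference between steps was -0.0553 for Urod with thinning, -1.77 for Gata1, -0.44 for Klf1 and -1.43 for Epor with voom, and -0.40 for Epor with a pseudocount of 0.1. With 1 library left out it ran from -1.0013 to 1.73 for Urod and from -0.0468 to 2.89 for Gata1. The median of all genes at day 4 moved from -0.40 to -0.29 with median ratio scaling, -0.04 with quantile scaling and -1.11 with voom. The day 0 libraries were the shallowest, so low levels there are the least precise. No paired analysis was possible because the days share at most 1 replicate number.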
